A study of Mus musculus with 2 samples.

Results

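The 38 genes described here form the antioxidant, glutathione and metallothionein system, and they were measured in interscapular brown adipose tissue (iBAT) of mice aged 20 days, either wild-type (WT) or lacking Ucp1 (KO). The members were found by their gene symbol, and all 38 of 38 were listed in both libraries, among 27179 genes in all. The WT group was labelled Bl6N, wild-type and the KO group Bl6N, Ucp1 KO, both groups were untreated, and the animals were described as male. Each group was a single RNA sequencing library made from the tissue of 3 pooled animals, and the totals were 52950913 (WT) and 53216727 counts (KO). There were no replicates, so every difference below is one between these 2 libraries, has an interval for counting error only and has no p-value.

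Brown fat burns fuel in mitochondria at a high rate, and respiration leaks electrons to oxygen, giving superoxide. Superoxide dismutases turn superoxide into hydrogen peroxide, and glutathione peroxidases and peroxiredoxins then reduce the peroxide, using glutathione or thioredoxin that is recycled with NADPH. Many of these genes are induced by the transcription factor NRF2 (Nfe2l2), which the adaptor KEAP1 marks for degradation until oxidants or electrophiles modify it. Metallothioneins are small cysteine-rich proteins that bind zinc and copper, and their genes respond to metals and to glucocorticoids.

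Normalised counts are counts divided by a median-of-ratios size factor. The log2 ratio sets KO against WT after 0.5 was added to each normalised count, and the values in parentheses are its exact 95% counting interval. A gene differed beyond counting error where that interval lay wholly above or below 0, and it passed the size rule where the log2 ratio was at least 1 in size, which is 2-fold. Total-count scaling shifted the median over all genes by -0.31 on the log2 scale, against -0.013 when mitochondrially encoded genes were left out of the total, and with total counts 10 of the 38 members changed sign.

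Ucp1 had 366473 counts in WT and 37853 in KO, a log2 ratio of -2.98 (-3.00 to -2.95). On the Y chromosome, Ddx3y, Uty, Kdm5d and Eif2s3y had 0 counts in the library labelled WT and 3446, 798, 570 and 491 in KO. The X-linked Xist had 32380 and 16478 counts. The WT values go against the description of the animals as male, and the KO library held both Y-linked and Xist transcripts. The libraries thus differed in sex-linked transcripts as well as in genotype, and sex cannot be told apart from genotype. The 12 brown adipocyte markers were all present, from 14632 to 15735 counts per 1000000 of the library (CPM) in sum. Of them 10 were higher beyond counting error, beside 31.5% of all genes (7 with total counts, beside 14.5%). The 16 skeletal muscle markers went from 6842 to 858 CPM in sum, each of them at least 2-fold lower. In bulk tissue, fewer cells of a type and less RNA per cell cannot be told apart, and genotype cannot be told apart from the other differences between the pools.

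All 38 members had counts in both libraries and reached a mean of 10 normalised counts, the minimum for the comparison. Together they made up 0.760% of the WT counts (exact binomial interval 0.757% to 0.763%), and in KO they made up 0.763% (0.759% to 0.766%). These shares are on the total-count scale. With the size factors, the log2 ratio of the summed counts was 0.31 (0.30 to 0.32). Only Hmox1, Srxn1, Gsta3 and Gpx8 were at least 2-fold higher in KO, and only Gpx7 was at least 2-fold lower. The 4 higher members are 10.5% of 38, against 7.42% of the 15212 genes examined, and the 1 lower member is 2.63%, against 9.55%. Of the 33 members between these limits, 28 differed by less than 1.5-fold.

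Beyond counting error, 23 members (60.5%) were higher and 6 (15.8%) were lower, against 31.5% and 30.5% of all genes. Members were more abundant than other genes, with a median mean normalised count of 4076 against 696, and abundant genes leave counting error more easily. In the class with a mean of 1000 normalised counts or more, 21 of 31 members were higher (67.7%) against 44.0% of 6395 genes, and 4 were lower (12.9%) against 32.9%. In that class 3 members were at least 2-fold higher, against 2.63% of genes, and 0 were at least 2-fold lower, against 2.86%. The median log2 ratio of the 38 members was 0.23, while that of all genes was -0.0016. With total counts the median was -0.08, 14 members were higher and 19 lower beyond counting error, and 14.5% and 53.8% of all genes were.

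**Figure D1:**
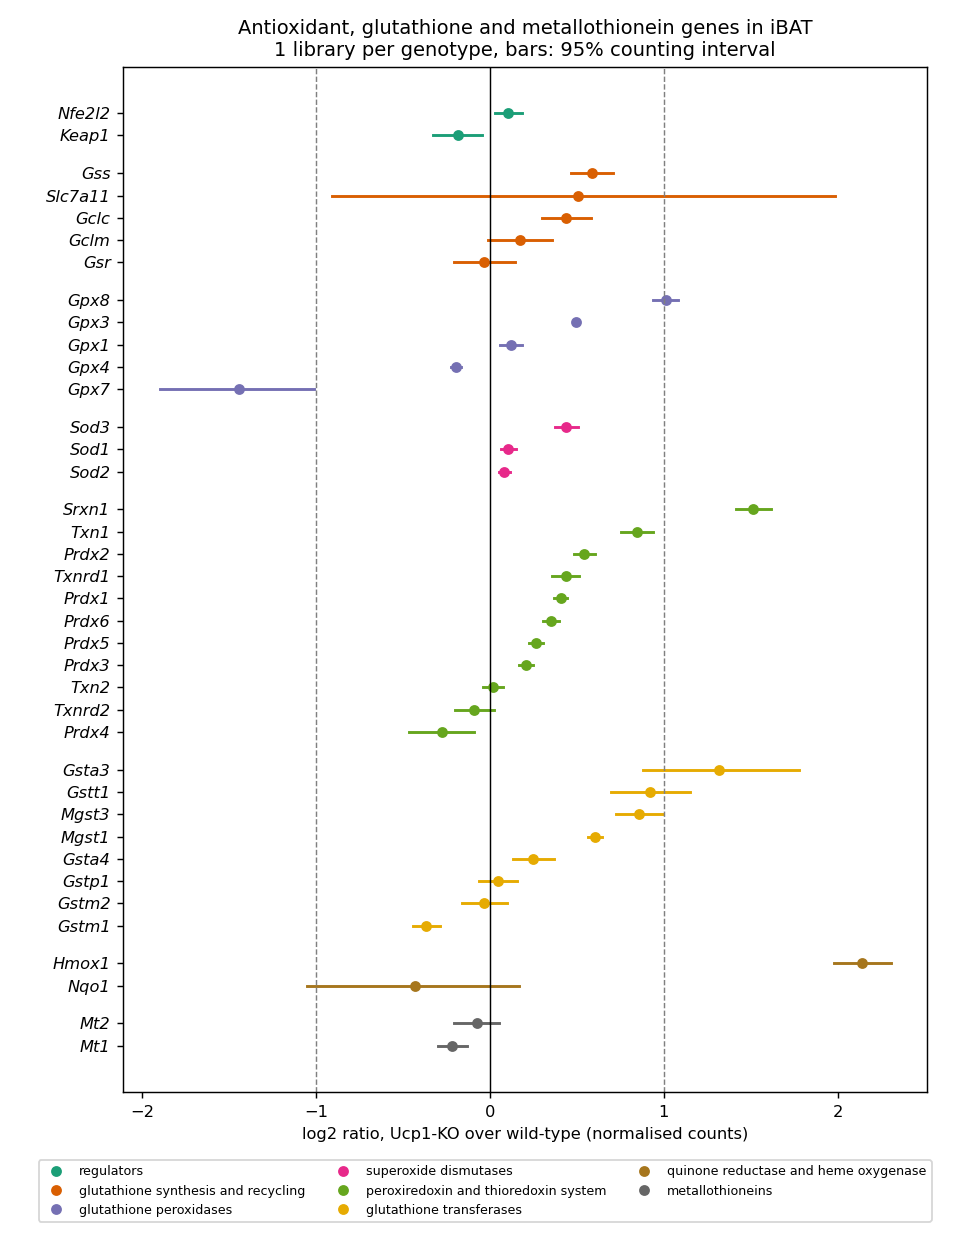
Log2 ratio of KO over WT normalised counts (x axis) for each of the 38 members (y axis), coloured by role, from 1 library per genotype. Bars are 95% counting intervals and dashed lines mark 2-fold: Hmox1 lies furthest right at 2.14, Gpx7 furthest left at -1.44, and 33 members lie between the dashed lines.

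Heme oxygenase 1 (Hmox1, Entrez gene 15368) opens the heme ring and yields biliverdin, carbon monoxide and iron. It had 803 counts in WT (Poisson interval 726 to 886) and 2879 in KO (2732 to 3032). Its log2 ratio of 2.14 (1.98 to 2.30) was the highest among the members, a level 4.41 times that of WT, and total counts gave 1.83. The gene occupies bases 75820241 to 75827217 of chromosome 8 (GRCm39, plus strand), 8.19 Mb from Ucp1. Hmox1 is strongly expressed by macrophages. Of the 12 macrophage markers 5 were higher and 1 was lower beyond counting error, beside 31.5% and 30.5% of all genes (4 and 5 with total counts, beside 14.5% and 53.8%). At least 2-fold higher were 3 of them, Itgam at 2.04 (1.58 to 2.55), Fcgr1 at 1.76 (0.86 to 2.77) and Cd68 at 1.09 (0.75 to 1.43), named after their values were seen. The summed level of all 12 was 167 CPM in WT and 166 CPM in KO, which is the total-count scale, and the log2 ratio of the sum was 0.30 (0.24 to 0.36) with the size factors. None of them was at 0, and the scavenger receptor for hemoglobin, Cd163, had a log2 ratio of -0.47 (-0.67 to -0.26). The part of macrophage transcripts in the Hmox1 difference was not tested.

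Sulfiredoxin (Srxn1, Entrez gene 76650) repairs peroxiredoxins whose active cysteine has been over-oxidised. It had 2297 counts in WT (2166 to 2434) and 5327 in KO (5127 to 5533), a log2 ratio of 1.51 (1.41 to 1.61). The counting intervals of both libraries are far apart, and total counts gave 1.21. Srxn1 lies on chromosome 2 from 151947436 to 151957687 on the plus strand. Its substrates differed less: Prdx1, a cytosolic peroxiredoxin, was at 0.41. Per kilobase of exon the Srxn1 level was 0.0440 times that of Prdx1 in WT and 0.0946 times in KO.

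The glutathione transferase Gsta3 (Entrez gene 14859), which joins glutathione to electrophiles, had 127 counts in WT (97.7 to 162) and 258 in KO (215 to 306). Its log2 ratio was 1.32 (0.88 to 1.78), so the interval reaches below 2-fold, and total counts gave 1.01. Gsta3 lies on chromosome 1 from 21310806 to 21335885 on the plus strand and was the second lowest member per length in the WT library.

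Gpx7 and Gpx8 are peroxidases of the endoplasmic reticulum that have cysteine in place of selenocysteine and take part in oxidative protein folding. They stood on opposite sides. Gpx8 (Entrez gene 69590, chromosome 13, 113178829 to 113183292, minus strand) had 5253 counts in WT and 8599 in KO, a log2 ratio of 1.01 (0.94 to 1.08). Gpx7 (Entrez gene 67305, chromosome 4, 108257583 to 108264158, minus strand) had 382 counts in WT and 114 in KO, a log2 ratio of -1.44 (-1.90 to -1.01), which left 36.8% of the WT level. Per kilobase of exon, Gpx8 was thus 12.8 times as abundant as Gpx7 in WT and 70.1 times in KO. Gpx8 lay at the edge of the size rule, at 0.999 with TMM factors and 0.70 with total counts, while Gpx7 passed it with every scaling tried. Just outside the rule was Gstt1 at 0.92. Gpx7 and Gpx8 are expressed in fibroblasts among other cells. The 12 preadipocyte and fibroblast markers went from 2166 to 1573 CPM in sum, a log2 ratio of -0.15 (-0.17 to -0.14) with the size factors. Of them 11 were lower beyond counting error, beside 30.5% of all genes, and none was at 0. The part of these cells in the differences of Gpx7 and Gpx8 was not tested.

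The upstream sequences of these members are shown because NRF2 acts through a short DNA element, the antioxidant response element, in the promoters of its targets. RefSeq promoter windows (GRCm38.p6) were found for 32 of the 38 members by symbol, Hmox1 not among them, and the 250 bases before the start are given 5′ to 3′ on the gene's strand, placed on GRCm39 by exact match. Capitals mark matches to the element's core, searched as TGACNNNGC or TGAGNNNGC on both strands, the latter spelling added after the Srxn1 sequence had been seen. The windows are chr2:151947194-151947443 (plus strand) for Srxn1, chr1:21310559-21310808 (plus) for Gsta3, chr13:113182923-113183172 (minus) for Gpx8 and chr4:108263911-108264160 (minus) for Gpx7.
Srxn1: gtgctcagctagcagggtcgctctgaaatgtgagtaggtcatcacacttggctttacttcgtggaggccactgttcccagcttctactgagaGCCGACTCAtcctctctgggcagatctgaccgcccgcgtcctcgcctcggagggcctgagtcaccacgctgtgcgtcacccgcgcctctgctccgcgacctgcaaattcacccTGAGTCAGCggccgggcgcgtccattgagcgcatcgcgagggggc
Gsta3: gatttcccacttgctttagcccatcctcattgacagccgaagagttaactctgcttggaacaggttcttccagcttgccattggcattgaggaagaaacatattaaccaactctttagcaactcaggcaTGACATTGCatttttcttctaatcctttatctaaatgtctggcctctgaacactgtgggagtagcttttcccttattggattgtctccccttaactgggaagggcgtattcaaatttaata
Gpx8: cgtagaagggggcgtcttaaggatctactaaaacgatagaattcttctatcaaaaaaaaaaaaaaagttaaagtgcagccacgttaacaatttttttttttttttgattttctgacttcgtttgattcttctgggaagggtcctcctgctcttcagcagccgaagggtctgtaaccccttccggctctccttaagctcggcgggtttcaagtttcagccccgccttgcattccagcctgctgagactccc
Gpx7: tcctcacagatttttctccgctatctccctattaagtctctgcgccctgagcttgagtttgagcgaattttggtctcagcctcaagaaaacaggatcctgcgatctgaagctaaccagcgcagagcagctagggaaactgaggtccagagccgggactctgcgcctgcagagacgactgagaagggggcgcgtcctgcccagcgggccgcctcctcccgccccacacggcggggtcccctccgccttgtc

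Srxn1 held 2 matches, which began 158 and 45 bases before the start, and the one nearer the start overlapped the AP-1 motif TGANTCA. Gsta3 held 1 match, which began 121 bases before the start, and the windows of Gpx8 and Gpx7 held none. The start is that of the RefSeq windows. By the GENCODE bounds given above, the Gpx8 window and nearly all of the Gpx7 window lie within the gene. Both Srxn1 matches are to the spelling TGAGNNNGC, which was added after that sequence had been seen. Of the 39 windows of the members, 13 held a match to either spelling (33.3%), against 23.0% of 32851 windows of all genes. As a spelling was taken from a member, these shares are a description only. A match is a run of letters and was not examined as a binding site.

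**Figure D2:**
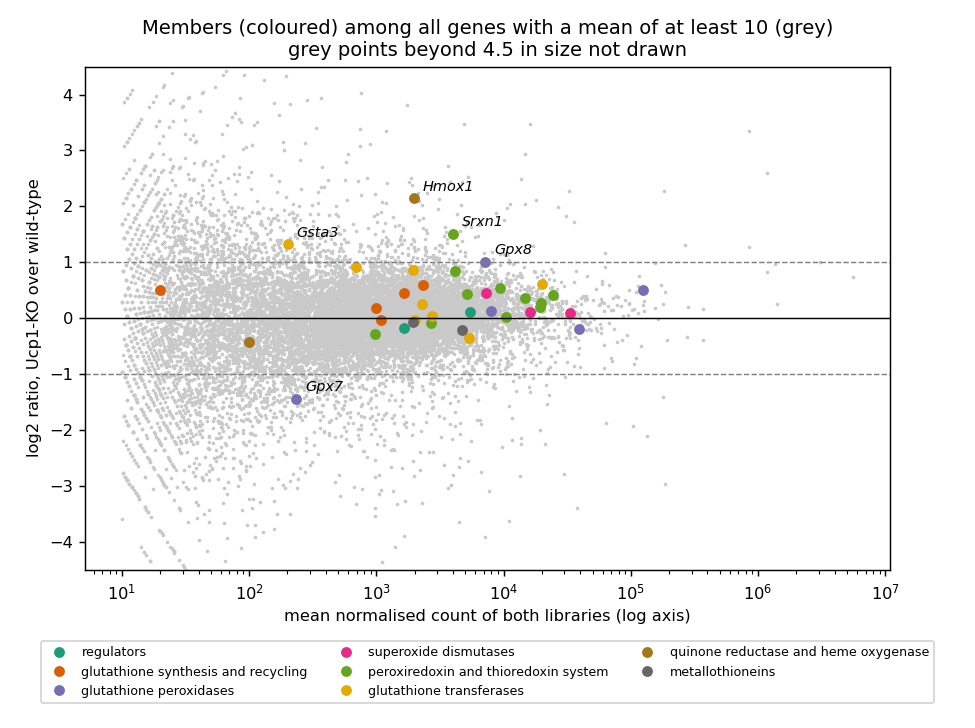
Log2 ratio of KO over WT (y axis) against the mean normalised count of both libraries (x axis, log scale), for the 38 members (coloured by role) and the other genes with a mean of at least 10 (grey, those beyond 4.5 in size not drawn). The 5 named members lie outside the dashed 2-fold lines at 2.14, 1.51, 1.32, 1.01 and -1.44, and the other 33 lie between them.

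Neither regulator of the system reached the size rule. Nfe2l2 had 5778 counts in WT and 5050 in KO, a log2 ratio of 0.11 (0.03 to 0.18) that turned to -0.20 with total counts. Keap1 had 1941 and 1386 counts, which gave a log2 ratio of -0.19 (-0.33 to -0.04), and -0.49 (-0.64 to -0.35) with total counts. Nqo1, a quinone reductase that is a classical NRF2 target, had 128 counts in WT and 77 in KO. Its log2 ratio of -0.43 (-1.05 to 0.17) was not beyond counting error, and its interval lay wholly below that of Hmox1. With total counts Nqo1 was at -0.74 (-1.36 to -0.14).

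Glutathione is made from cysteine, glutamate and glycine by glutamate-cysteine ligase, of which Gclc is the catalytic and Gclm the modifier subunit, and then by glutathione synthetase (Gss). Gclc had 1557 counts in WT and 1716 in KO, a log2 ratio of 0.44 (0.30 to 0.58). Gss had 2064 and 2521 counts, which gave a log2 ratio of 0.59 (0.47 to 0.71). Both were higher beyond counting error. With total counts Gss stayed so at 0.28 (0.16 to 0.40), and Gclc did not at 0.13 (-0.01 to 0.27). Gclm had 1033 and 946 counts, and its log2 ratio of 0.17 (-0.01 to 0.36) was not beyond counting error, nor was the -0.13 (-0.32 to 0.05) that total counts gave. Glutathione reductase (Gsr), which recycles oxidised glutathione, was at -0.03 (-0.21 to 0.14), and at -0.34 (-0.51 to -0.16) with total counts. Slc7a11, the cystine importer, was nearly absent, with 18 and 21 counts, and its interval of -0.91 to 1.98 holds both a large rise and a large fall.

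The remaining glutathione peroxidases are selenoproteins. Gpx3, the secreted form, was the most abundant member per length in both libraries and held 28.4% of all member counts in WT and 32.2% in KO. It had 114227 counts in WT and 130632 in KO, so its log2 ratio was 0.49 (0.48 to 0.51), and 0.19 with total counts. Gpx4, which reduces lipid peroxides within membranes, had 46032 and 32633 counts. Its log2 ratio was -0.20 (-0.23 to -0.17), and -0.50 with total counts. The counting intervals of Gpx3 and Gpx4 are narrow and on opposite sides of 0. Gpx1, the cytosolic form, had 8391 and 7421 counts, at 0.12 (0.06 to 0.19) and at -0.18 with total counts.

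Of the superoxide dismutases, the extracellular Sod3 had 6782 counts in WT and 7477 in KO, a log2 ratio of 0.44 (0.37 to 0.51). The cytosolic Sod1 had 17096 and 14953 counts, at 0.11 (0.06 to 0.15), and the mitochondrial Sod2 had 36080 and 31057, at 0.08 (0.05 to 0.11). These small differences of Sod1 and Sod2 changed sign with total counts, to -0.20 and -0.22, while Sod3 stayed above 0 at 0.13.

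Peroxiredoxins reduce peroxide with electrons from thioredoxin. Of the 11 genes of this system 8 were higher beyond counting error and 1 was lower, where all genes gave 31.5% and 30.5%. With total counts 5 were higher and 5 lower beyond counting error, where all genes gave 14.5% and 53.8%. Besides Srxn1, thioredoxin 1 (Txn1) differed most, with 3302 counts in WT and 4821 in KO and a log2 ratio of 0.85 (0.75 to 0.94). Its reductase Txnrd1 had 4829 and 5303 counts, at 0.43 (0.35 to 0.51). The mitochondrial partners were within counting error, Txn2 at 0.02 (-0.04 to 0.07) and Txnrd2 at -0.09 (-0.20 to 0.02). With total counts both were lower beyond it, at -0.29 and -0.40, while Txn1 was at 0.54 and Txnrd1 at 0.13. Per kilobase of exon, Txn1 stood at 0.593 times Txn2 in WT and at 1.05 times in KO, and Txnrd1 went from 0.978 to 1.41 times Txnrd2.

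Among the peroxiredoxins themselves, the cytosolic Prdx2 had 8449 counts in WT and 10004 in KO, a log2 ratio of 0.54 (0.48 to 0.60). Prdx2 is abundant in red blood cells. Of the 7 erythroid markers examined 6 were lower beyond counting error, beside 30.5% of all genes, with none of those listed at 0. They went from 1052 to 604 CPM in sum, a log2 ratio of -0.49 (-0.52 to -0.47) with the size factors. The part of red blood cells in the Prdx2 difference was not tested. Prdx1 had 23157 and 24949 counts, at 0.41 (0.37 to 0.44), and Prdx6, which also acts on phospholipids, had 14264 and 14772, at 0.35 (0.30 to 0.40), or 0.04 with total counts, no longer beyond counting error. The mitochondrial Prdx3 had 19939 and 18685 counts, at 0.21 (0.17 to 0.25), and Prdx5, found in mitochondria, peroxisomes and cytosol, had 19671 and 19211, at 0.27 (0.22 to 0.31). Total counts turned these last values to -0.10 and -0.04. Prdx4, the form of the endoplasmic reticulum, was the exception, with 1189 and 797 counts. Its log2 ratio was -0.28 (-0.46 to -0.09), and -0.58 with total counts.

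Glutathione transferases join glutathione to lipid peroxidation products and foreign compounds. Of the 8 members 5 were higher beyond counting error and 1 was lower, beside 31.5% and 30.5% of all genes. With total counts 4 were higher and 3 lower, beside 14.5% and 53.8%. Besides Gsta3, Gstt1 had 527 counts in WT and 812 in KO, a log2 ratio of 0.92 (0.70 to 1.15). The membrane-bound forms were both higher: Mgst3 had 1517 and 2236 counts, at 0.86 (0.73 to 0.99), and Mgst1 had 17722 and 21913, at 0.61 (0.57 to 0.65). Gsta4, which handles the lipid aldehyde 4-hydroxynonenal, had 2299 and 2222 counts, at 0.25 (0.13 to 0.37), or -0.06 with total counts. Gstm1 had 6677 and 4212 counts and a log2 ratio of -0.37 (-0.44 to -0.29), lower beyond counting error. Gstm2 at -0.03 (-0.16 to 0.10) and Gstp1 at 0.04 (-0.06 to 0.15) were within it, and with total counts they were lower beyond it, at -0.34 and -0.26.

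Of the metallothioneins, Mt1 was lower beyond counting error, and Mt2 was so only with total counts. Mt1 had 5634 counts in WT and 3939 in KO, so its log2 ratio was -0.22 (-0.30 to -0.13), and -0.52 with total counts. Mt2 had 2206 and 1700 counts, at -0.08 (-0.21 to 0.05), and at -0.38 (-0.51 to -0.25) with total counts. The summed counts of both gave -0.18 (-0.25 to -0.11). Neither approached the size rule with any scaling. Mtf1, the metal-sensing factor that drives both genes, was at 0.24 (0.07 to 0.41), or -0.06 with total counts, and its target Slc30a1, a zinc exporter, was at -0.40 (-0.52 to -0.27). Mt3 had 2 counts in WT and 0 in KO, and Mt4 was listed at 0 in both libraries. Of 10 glucocorticoid-responsive genes, 9 were lower beyond counting error, beside 30.5% of all genes, with a median log2 ratio of -0.63. Their part in the Mt1 difference was not tested.

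Levels of different genes were compared per kilobase of exon. The order of the 5 most abundant members was Gpx3, Gpx4, Prdx3, Mgst1 and Prdx5 in both libraries. Gpx3 had 33625 normalised counts per kilobase in WT and 47331 in KO. Slc7a11 was the least abundant in both. Hmox1 climbed from rank 25 to rank 18 of 38, from 411 to 1816 normalised counts per kilobase. Txn1 went from rank 19 to rank 12, and Srxn1 from rank 31 to rank 26. Exon lengths were those of all annotated transcripts merged, so a gene with a rarely used long transcript, such as Sod2, ranks lower than its main transcript would.

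**Figure D3:**
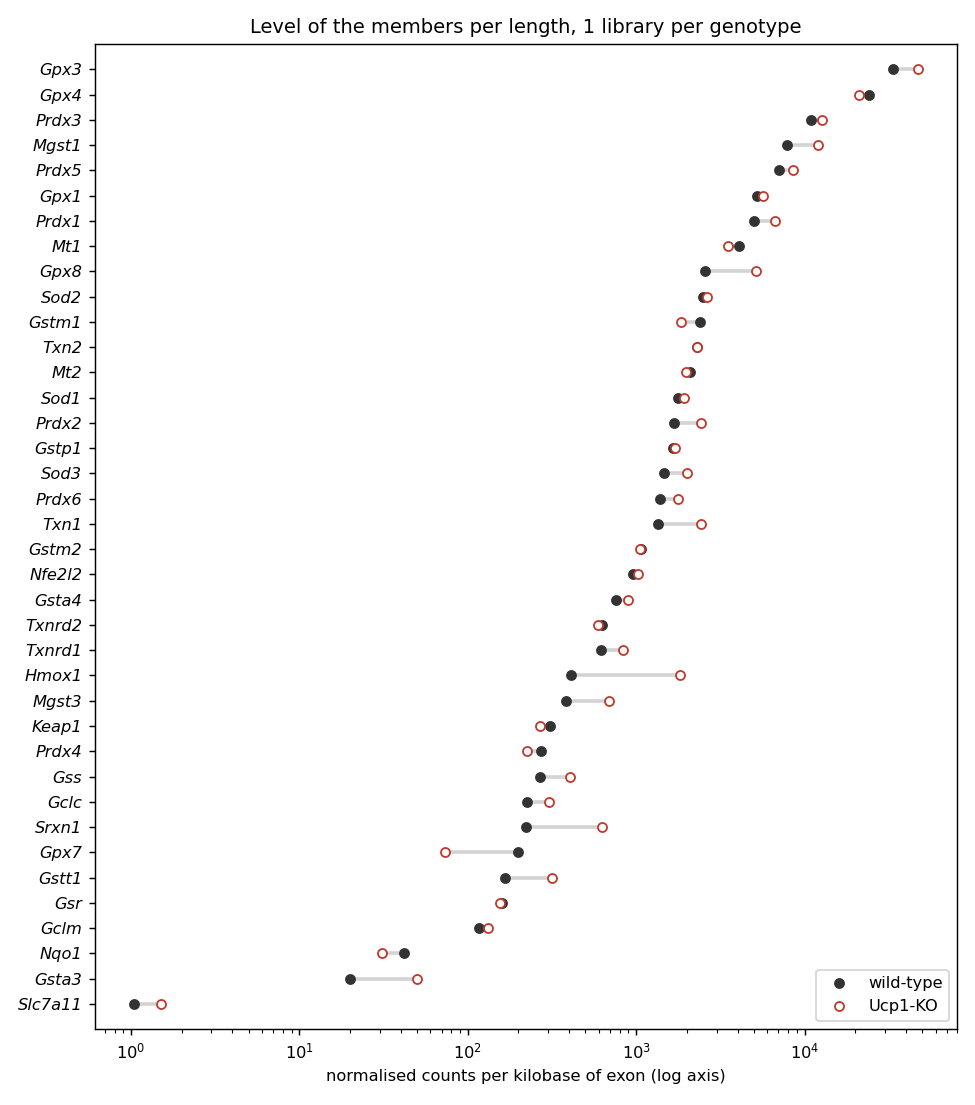
Normalised counts per kilobase of exon (x axis, log scale) of the 38 members in the WT library (filled) and the KO library (open), ordered by WT level. Hmox1 moves furthest, from 411 to 1816, and Gpx7 and Gpx8 move in opposite directions.

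Position and sequence limit some of these values. Ucp1 lies on chromosome 8, as do 6 members: Prdx2 is 1.67 Mb away, Hmox1 8.19 Mb, Mt2 and Mt1 10.9 Mb, Nqo1 24.1 Mb and Gsr 49.8 Mb. Their log2 ratios ranged from -0.43 for Nqo1 to 2.14 for Hmox1. Exons of 8 members overlap those of a protein-coding gene on the opposite strand, and the setting for strand was not given in the sources used here. Antisense non-coding genes cover 85.3% of the Gpx1 exons and 82.4% of those of Mt2. The Tnip1 overlap covers 85.0% of the Gpx3 exons, and Tnip1 had 1440 and 1690 counts against 114227 and 130632 for Gpx3. Acss2 covers 21.9% of the Gss exons and had 10752 and 4877 counts, lower where Gss was higher. Of the overlapping 100-base windows of a transcript, those also found in another gene were 48.4% for Gpx4, 47.3% for Gstp1 (most with Gstp2), 13.4% for Gstm2 and 5.52% for Gstm1, so these counts are uncertain. No such window was found for Hmox1, Srxn1, Gsta3, Gpx7 or Gpx8.

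The wider pathway was described with lists of genes outside the members, read against the background of 7.42% higher and 9.55% lower by the size rule. Of 12 other NRF2 target genes, 3 were at least 2-fold higher and 0 lower, and 9 were higher and 2 lower beyond counting error, beside 31.5% and 30.5% of all genes. With total counts 6 were higher and 2 lower, beside 14.5% and 53.8%. The lower genes were Ephx1 at -0.97 and Aox1 at -0.37 in both cases. With total counts Ephx1 was at -1.27, past 2-fold, and Aox1 at -0.67. Carbonyl reductases led this list: Cbr3 had 153 counts in WT and 955 in KO, a log2 ratio of 2.94 (2.59 to 3.31), and Cbr1 had 2684 and 7069, at 1.70 (1.61 to 1.79). The ferritin chains Fth1 at 0.39 (0.37 to 0.41) and Ftl1 at 0.49 (0.43 to 0.54), which store iron, were higher by less. Total counts gave 0.09 for Fth1 and 0.18 for Ftl1. Of 11 partners and relatives of NRF2, 2 were at least 2-fold higher, both with mean normalised counts under 100, and the repressor Bach1 was at 0.19 (0.04 to 0.34), or -0.11 with total counts.

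For glutathione turnover and cysteine supply, the size rule took 3 of 17 genes as higher and 1 as lower. Beyond counting error 9 were higher and 5 lower, beside 31.5% and 30.5% of all genes. Total counts reversed this to 5 higher and 9 lower, beside 14.5% and 53.8%. Slc3a2, the partner chain of the cystine importer Slc7a11 and of other amino acid transporters, had 2690 counts in WT and 6833 in KO, at 1.64 (1.55 to 1.74). Cth, which makes cysteine from cystathionine, was at 1.18 (0.86 to 1.51), or 0.87 with total counts. Chac1, which degrades glutathione, had 15 and 42 counts, at 1.75 (0.53 to 3.21). Ggt5, which cleaves extracellular glutathione conjugates, was at -1.02 (-1.35 to -0.69), and at -1.32 with total counts. These genes differed by more than Gclc and Gss, the members that make glutathione, whose intervals lie below those of Slc3a2 and Cth.

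Of 20 other genes of peroxide and thiol repair, 8 were higher and 4 lower beyond counting error, beside 31.5% and 30.5% of all genes. With total counts 5 were higher and 12 lower, beside 14.5% and 53.8%. By the size rule 1 of the 20 was higher and 0 lower. Glutaredoxin (Glrx) was the one, with 746 and 1535 counts, at 1.34 (1.16 to 1.52). Catalase (Cat), the peroxisomal enzyme that splits hydrogen peroxide, had 34652 and 26124 counts, at -0.11 (-0.14 to -0.08), and -0.41 with total counts. The thioredoxin inhibitor Txnip was at 0.39 (0.36 to 0.42), or 0.08 with total counts. The stress-responsive Sesn2 was at 0.66 (0.45 to 0.87) and Sesn1 at -0.73, or 0.35 and -1.04 with total counts. Of 15 other glutathione transferases examined, 2 were at least 2-fold higher and 1 lower, all of them with mean normalised counts under 100. None of the 7 genes of selenoprotein synthesis passed the size rule. Of 7 oxidant-producing enzymes examined, Xdh, which makes uric acid and superoxide, was at -1.18 (-1.26 to -1.10).

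**Figure D4:**
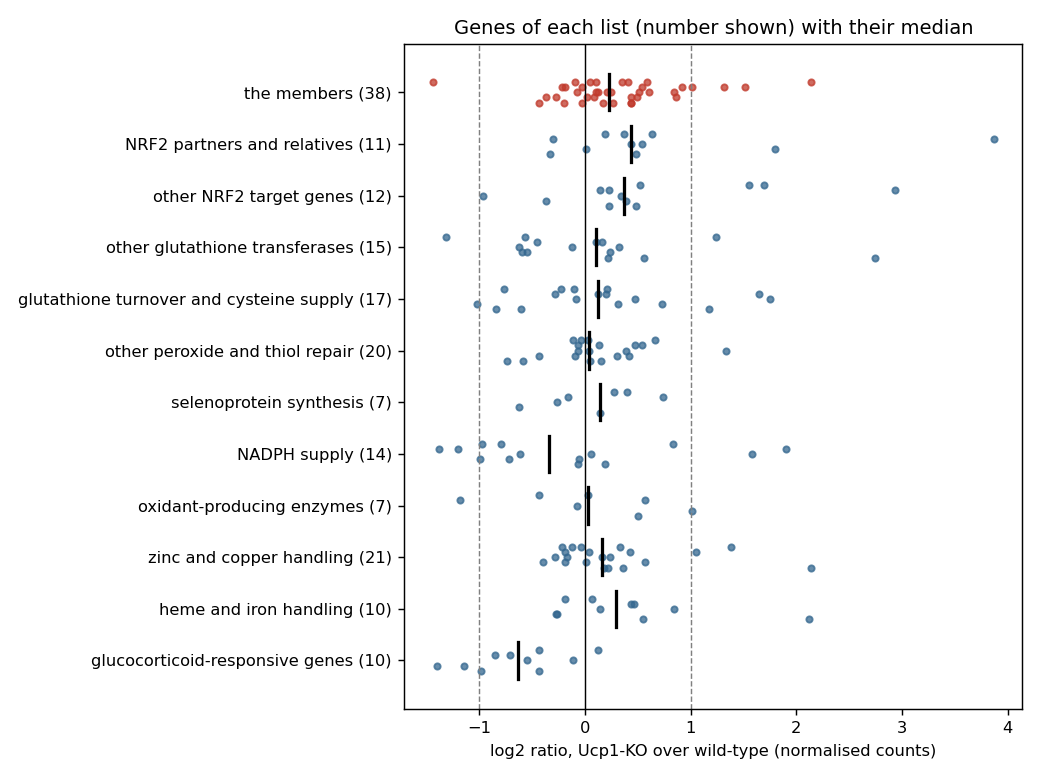
Log2 ratio of KO over WT (x axis) for each gene that reached a mean of 10 normalised counts in the members and in 11 lists of related genes (y axis, with the number of genes). Black bars are medians, 0.23 for the members, -0.34 for NADPH supply and -0.63 for the glucocorticoid-responsive genes, and dashed lines mark 2-fold.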

How the data were processed

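RNA of iBAT was enriched for poly-adenylated RNA and sequenced as directional libraries, per the labels. The authors deposited raw counts for each gene, made with featureCounts. Trim Galore, HISAT2 and mm39 are named in the submitters' processing notes, and versions, annotation, strand and multiple-match settings were not given in the sources used here. Genes without a symbol held 0.156% and 0.121% of the counts and were kept.

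Size factors came from the median-of-ratios method, 1.11 for WT and 0.901 for KO (DESeq2 1.42.0, R 4.3.3). Among genes with 1 to 10 counts, 70.7% and 73.4% of values were even, as when both mates of a pair are often counted. Among genes with 100 to 1000 counts 49.9% and 50.2% were even, so not every count came in a pair. Intervals were computed as if on read pairs (counts divided by 2). Ratios have Clopper-Pearson intervals, shares exact binomial and counts exact Poisson intervals (SciPy 1.17.1), all covering counting error only. The functions were tested on simulated data. The minimum for a gene was a mean of 10 normalised counts. Alternatives were TMM (edgeR 4.0.16), total counts with and without mitochondrially encoded genes, a pseudocount of 5, other minimum means, other size rules and intervals on the counts as deposited.

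The members and gene lists were chosen with earlier results of these data known. All 38 members are named, and of each other list up to 4 genes past the size rule whose mean reached 100 normalised counts, besides a few genes fixed by name. Positions are those of GRCm39 in GENCODE M39, joined by symbol. Of 10 erythroid markers 8 were in the tables. Markers of lymphocytes (5.31 and 4.00 CPM in sum), neutrophils (2.72 and 4.21), Schwann cells (288 and 155), endothelium (3048 and 1485) and smooth muscle (731 and 385) were also summed.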

Additional observations from a re-analysis of the deposited data

How the results depend on the processing

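No paired analysis was possible because there is only 1 library of either genotype, and none could be left out. Total counts turned the median of the members to -0.079, by the shift of -0.31 in all genes, moved the members beyond counting error to 14 higher and 19 lower, and changed the sign of 10 members. Of these, 7 had been beyond counting error: Nfe2l2 (-0.20), Gpx1 (-0.18), Sod1 (-0.20), Sod2 (-0.22), Prdx3 (-0.10), Prdx5 (-0.041) and Gsta4 (-0.056). The other 3 had been within it: Gclm (-0.13), Txn2 (-0.29) and Gstp1 (-0.26). With total counts without mitochondrially encoded genes, TMM factors or a pseudocount of 5, none of the 38 members left its counting interval, and the median was 0.22 to 0.23. By construction, a 1.5-fold rule gave 9 higher members and an interval wholly beyond 2-fold left 2, Hmox1 and Srxn1. Gpx8 fell just short of 2-fold with TMM factors and with total counts without mitochondrially encoded genes (0.70 with all total counts), which left 3 higher members in each, and Gpx7 was the 1 lower member under each alternative. Depth limits Slc7a11, Nqo1 and Gsta3, whose intervals are wide.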

Other observations

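Genes that supply NADPH, which both glutathione reductase and thioredoxin reductase need, had a median log2 ratio of -0.34, or -0.65 with total counts. Of 14 genes the size rule took 2 as higher and 2 as lower, beside 7.42% and 9.55% of all genes. Beyond counting error 4 were higher and 8 lower, beside 31.5% and 30.5%. With total counts 3 were higher and 11 lower beyond it, beside 14.5% and 53.8%. Malic enzyme Me1 had 36341 counts in WT and 11324 in KO, a log2 ratio of -1.38 (-1.43 to -1.34). Pgd of the pentose phosphate pathway had 32982 and 11678 counts, at -1.20 (-1.24 to -1.16). The mitochondrial folate enzymes were on the other side, with Aldh1l2 at 1.91 (1.45 to 2.40) and Mthfd2 at 1.58 (1.31 to 1.86). Nnt, the NADPH-forming transhydrogenase of the inner mitochondrial membrane, had 1038 and 430 counts, at -0.97 (-1.21 to -0.74), and -1.28 with total counts.

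Heme and iron genes were uneven, and only Tfrc, the transferrin receptor, passed the size rule among 10. It had 7400 counts in WT and 26126 in KO, a log2 ratio of 2.12 (2.07 to 2.17), close to that of Hmox1 at 2.14. Of 21 zinc and copper genes examined, 3 passed the size rule, all of them higher, beside 7.42% of all genes. Beyond counting error 10 were higher and 5 lower, beside 31.5% and 30.5%. With total counts 4 were higher and 12 lower beyond it, beside 14.5% and 53.8%. The metal importers Slc39a8 at 1.38 (0.89 to 1.90) and Slc39a14 at 1.05 (0.94 to 1.17) were among the 3. Total counts gave 1.08 for Slc39a8 and 0.75, below 2-fold, for Slc39a14.

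Among the glucocorticoid-responsive genes, Tsc22d3 had 11057 and 4054 counts, at -1.15 (-1.22 to -1.07), and Hsd11b1, which regenerates active glucocorticoid, had 6643 and 2045, at -1.40 (-1.50 to -1.30). The receptor Nr3c1 was at 0.12 (0.06 to 0.19), or -0.19 with total counts. On that scale all 10 genes of the list were lower beyond counting error, beside 53.8% of all genes.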
